A study of Mus musculus with 1073 samples.

Results

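Megakaryocytes (Mk) sorted from the mouse yolk sac at embryonic day (E) 8.5 were compared with those sorted at E10.5, gene by gene. They make up 110 of the 926 single cells that passed the authors' quality filter, 37 from E8.5 and 73 from E10.5, and were chosen by their sort label alone. The study profiled yolk sac populations by full-length single-cell RNA-seq on the Fluidigm C1 system, in which each cell sits at its own capture site sized for a range of cell diameters, and the embryos of these groups were untreated C57BL/6. E8.5 megakaryocytes were sorted as TER119- CDH5- CD41+ and E10.5 megakaryocytes as TER119- CDH5- CD45- CD41high, where TER119 marks erythroid cells, CDH5 endothelium, CD45 (*Ptprc*) leukocytes and CD41 (*Itga2b*) the megakaryocyte lineage and early blood progenitors. Endothelium (Endo) and haematopoietic progenitor/colony forming cells (HPC) of the same 2 stages, E8.5 primitive erythroid cells (EryP) and E10.5 macrophages (Mac), also from C57BL/6 yolk sacs, serve here as populations for comparison. Their gates differ as well. Endo was CDH5+ CD41- at both stages, while HPC was CDH5+ CD41+ at E8.5 and CDH5- CD41low CD45+ at E10.5, so that the ratios of *Itga2b*, *Cdh5* and leukocyte genes in HPC cannot be told apart from its gates. Each stage of megakaryocytes is 1 sorted sample, sequenced in 1 lane of its own flow cell, with no embryo or pool named for a cell. There is therefore no replicate behind any ratio between stages, no test was made, and the gate, the flow cell, the lane and the stage cannot be told apart.

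Megakaryocytes shed platelets, and their mature form is large and polyploid. They load alpha and dense granules with chemokines, coagulation factors and adhesive proteins, build receptors for collagen, thrombin and von Willebrand factor, and extend proplatelets through a rebuilt tubulin and actin skeleton. The first megakaryocytes of the embryo arise in the yolk sac beside primitive erythroid cells, the nucleated red cells that carry embryonic globins, and both lineages use *Gata1* and its partners. For its yolk sac lineages the study cites earlier work on diploid platelet-forming cells that come before polyploid megakaryocytes in the embryo. Ploidy was not measured here, so the cells compared need not be polyploid.

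The libraries differed in depth and quality between the stages. E8.5 megakaryocytes held between 2625003 and 5234733 counts each (median 3536330) and E10.5 megakaryocytes between 546033 and 4272429 (median 1668712). After random thinning to 500000 counts per cell, which every megakaryocyte reached, the median number of genes detected (1 count or more) was 7404 at E8.5 and 6983 at E10.5. Of the captured cells, 69.8% were kept at E8.5 (95% Clopper-Pearson interval 55.7 to 81.7) and 88.0% at E10.5 (79.0 to 94.1). The captured cells were counted from the labels, which hold more for E8.5 than the study's own dataset summary, so the first share is uncertain. At E10.5, 12 cells had 10% or more of their counts on mitochondrial genes, up to 72.0%, and none of the E8.5 cells did (highest 8.56%). Because scran size factors do not fix the sum of a cell, the CPM of a megakaryocyte summed to as much as 4176737, and such cells weigh heavily in a mean. At E8.5, 16 of 37 megakaryocytes (43.2%, 27.1 to 60.5) held at least 5 counts of the female transcript *Xist* together with at least 5 from 4 Y-linked genes. At E10.5, 8 of 73 did (11.0%, 4.85 to 20.5). In the other populations of both stages the share ran from 19 of 87 (E10.5 HPC) to 59 of 79 (E8.5 Endo). With 100 counts of each required, 9 E8.5 and 2 E10.5 megakaryocytes remained. Whether these capture sites held more than 1 cell was not tested, and results are also given without them. Reads are not molecules, and the intervals cover counting error only.

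The sort labels were checked against 14 megakaryocyte markers. An E8.5 megakaryocyte expressed a median of 11 of them (5 to 13) and an E10.5 megakaryocyte a median of 14 (10 to 14), against 2 (0 to 5) in EryP. Their summed level was 423 to 8004 CPM in single cells at E8.5 (median 2519) and 4254 to 30593 at E10.5 (median 12465), so the stages overlapped. *Ppbp* alone of the 14 had no count in any E8.5 cell. *Plek* (pleckstrin, the main protein kinase C substrate of platelets) was under 10 CPM in 3 of 37 E8.5 megakaryocytes and in no E10.5 megakaryocyte, and it was at 0 in EryP. Of 6 macrophage markers, 6 were at 0 in E8.5 and 4 (*C1qa*, *C1qb*, *C1qc*, *Adgre1*) at 0 in E10.5 megakaryocytes. The gate gene *Ptprc* was not detected at E8.5 and had a mean of 3.06 CPM at E10.5, where 3 of 73 cells held it. *Cdh5* had a mean of 0.844 CPM at E8.5 and 0.0197 at E10.5.

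Across the transcriptome, 8264 of 15967 genes passed the filter on low values (an average of the stage means of 10 CPM or more, and detection in 25% or more of the cells of either stage). Of these, 1178 (14.3%) were 2-fold or more higher at E10.5 and 931 (11.3%) 2-fold or more lower, on the ratio of mean CPM + 1. The median log2 ratio of the genes tested was -0.06. When log2(CPM + 1) was averaged over cells in place of the CPM, the whole distribution shifted to a median of -0.36, and the share of higher genes among those past 2-fold went from 55.9% to 31.4%.

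Lists of genes with known roles were summarised over all members in the table, whether or not they passed the filter (the plot of list members). A member counts as higher or lower at a ratio of 2-fold if the stage with the larger mean reached 10 CPM and 25% of its cells, a rule that 8.34% of all genes met upwards and 6.61% downwards. The median log2 ratio of all genes was 0.

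**Figure D1:**
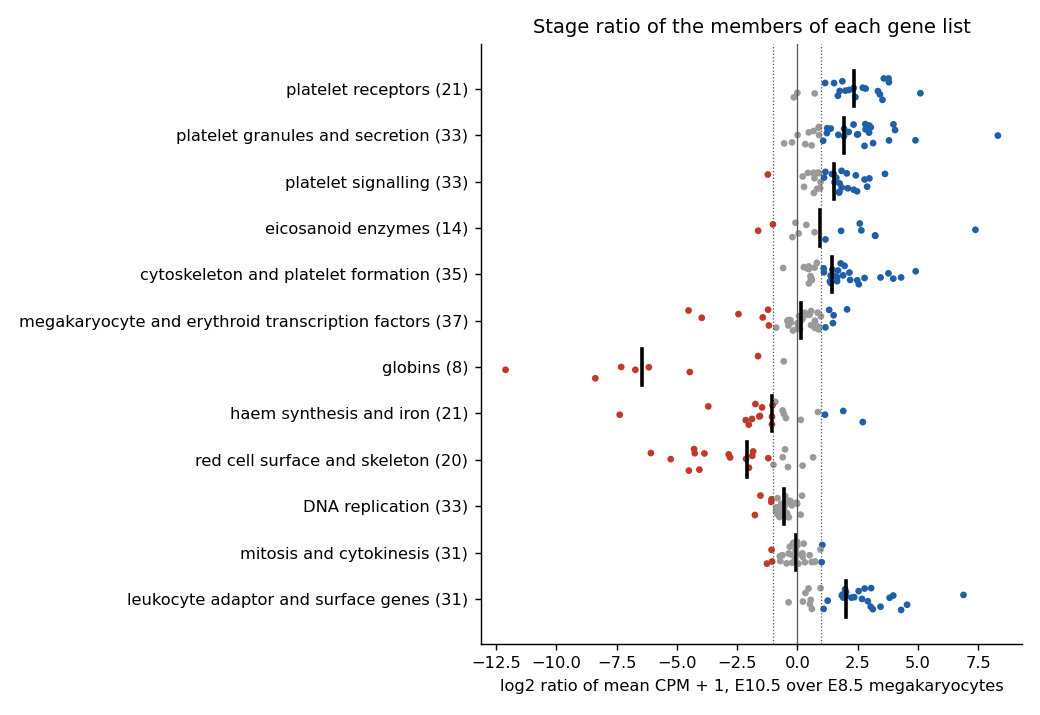
Log2 ratio of mean CPM + 1 (x axis, E10.5 over E8.5 megakaryocytes) for each member of 12 gene lists, with the number of members in brackets. Points are genes, coloured blue from 2-fold higher and red from 2-fold lower by the ratio alone, black bars are list medians, and dotted lines mark 2-fold. Platelet lists sit to the right (receptors, median 2.34), transcription factors around 0 (0.15) and globins far to the left (-6.44).

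Platelet receptors were higher at E10.5 almost throughout. Of 21 genes in the list, 17 were 2-fold or more higher and none was lower, with a median log2 ratio of 2.34. The largest ratio was that of *Gp6*, the collagen receptor glycoprotein VI. Its lowest, median and highest levels in single cells were 0, 0 and 50.5 CPM at E8.5 and 0, 82.7 and 725 at E10.5. Only 5 of 37 E8.5 cells held a count of it, against 62 of 73 at E10.5, of which 43 were above the highest E8.5 cell (log2 ratio 5.10). The subunits of the receptor for von Willebrand factor did not differ equally. *Gp9* went from a mean of 21.7 CPM to 311 (log2 ratio 3.78), *Gp1bb* from 3.33 to 51.0 (3.59), *Gp1ba* from 72.4 to 521 (2.83) and *Gp5* from 7.15 to 42.3 (2.41). For *Gp9*, 56 of 73 E10.5 cells exceeded every E8.5 cell. *Gp1ba* itself was detected in 31 of 37 cells at E8.5, while *Gp6* and the adhesion receptor *Cd84* (2 of 37) were rare.

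Receptors that every E8.5 cell expressed had ratios at or below the median of the list. Both chains of the fibrinogen receptor, *Itga2b* (which the gate uses) and *Itgb3*, were detected in 37 of 37 cells. *Itga2b* held 7.30, 138.2 and 614 CPM (lowest, median, highest) at E8.5 and 34.9, 387 and 6096 at E10.5 (log2 ratio 1.87), and the stages overlapped widely. *Itgb3* had means of 433 CPM at E8.5 and 1466 at E10.5 (1.76), *Itgb1* of 140.6 CPM at E8.5 and 314 at E10.5 (1.15), and the adhesion receptor *Adgrg1* of 269 CPM at E8.5 and 773 at E10.5 (1.52). *Treml1*, a receptor stored in alpha granules, had 36.3 CPM at E8.5 and 399.5 at E10.5 (3.43), with 60 of 73 E10.5 cells above all E8.5 cells. *Clec1b*, the receptor for podoplanin, had 85.4 CPM at E8.5 and 343 at E10.5 (1.99). *Jam3* did not differ by 2-fold (-0.15), and *Cd36* had no count at either stage.

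Granule genes held the largest ratio of all. Of 33 members, 22 were 2-fold or more higher, none was lower, and the median log2 ratio was 1.94. *Ppbp* (pro-platelet basic protein, a chemokine of alpha granules) had no count in 37 E8.5 cells and 48471 counts in 57 of 73 E10.5 cells. Its log2 ratio of mean CPM + 1 was 8.32. With the E8.5 group set at a floor of 3 counts over the group, summed counts, scaled to the total of the stage, were 15409-fold higher at E10.5. That fold rests on the chosen floor and covers counting error only, not the variation between cells. *Pf4* (platelet factor 4) ran from 0, 15.2 and 1236 CPM at E8.5 to 132.8, 4302 and 19413 at E10.5 for the lowest, median and highest cell. Summed counts gave a ratio of 28.1 (counting interval 27.8 to 28.5), and 61 of 73 E10.5 cells lay above the highest E8.5 cell. At E8.5, *Pf4* was uneven, with 16 of 37 cells under 10 CPM and 3 at 1000 CPM or more. The plot of single cells for 10 genes shows this spread.

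**Figure D2:**
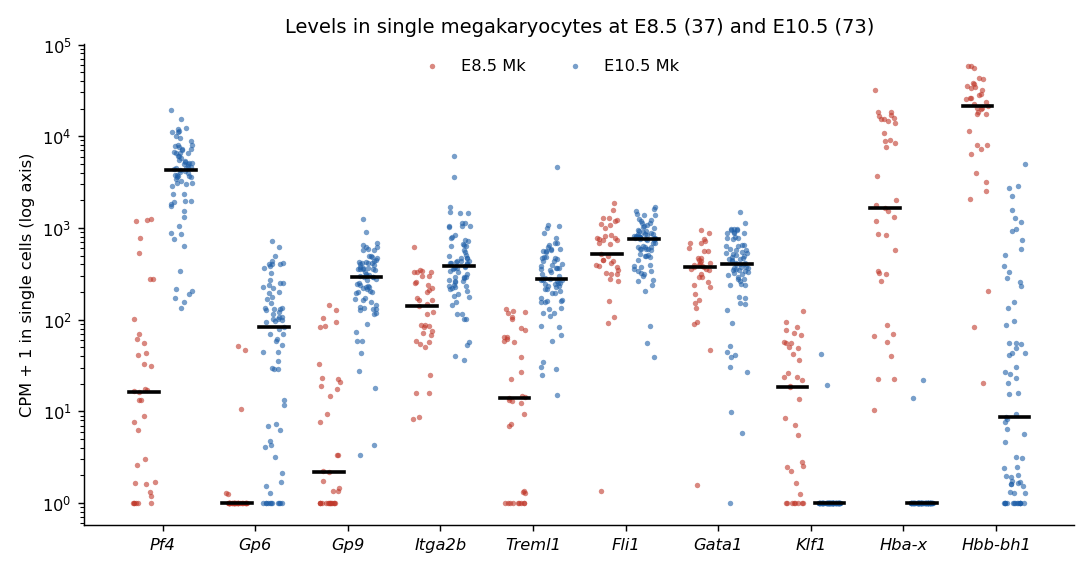
CPM + 1 of 10 genes (y axis, log scale) in single megakaryocytes at E8.5 (red, 37 cells) and E10.5 (blue, 73 cells), each point a cell and each black bar a median. More E10.5 cells lie above every E8.5 cell than not for *Pf4* (61 of 73), *Gp9* (56) and *Gp6* (43), the stages overlap widely for *Fli1* and *Gata1*, and *Klf1*, *Hba-x* and *Hbb-bh1* are high at E8.5.

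The promoters of *Ppbp*, *Pf4* and *Gp6*, which had some of the largest ratios, and of *Itga2b*, the gene of the gate, whose ratio was close to the list medians, are shown. The windows run from 250 bases before to 50 after the annotated start, from RefSeq on GRCm38.p6, written 5′ to 3′ on the strand of the gene. Capitals mark a GATA motif (AGATAA or its complement TTATCT) or an ETS motif (GGAAGT or its complement ACTTCC). These exact letters are among the forms bound by *Gata1* and by *Fli1* and its relatives. Other forms were not searched and are not marked.
Pf4 (chr5:90772185-90772484, plus strand): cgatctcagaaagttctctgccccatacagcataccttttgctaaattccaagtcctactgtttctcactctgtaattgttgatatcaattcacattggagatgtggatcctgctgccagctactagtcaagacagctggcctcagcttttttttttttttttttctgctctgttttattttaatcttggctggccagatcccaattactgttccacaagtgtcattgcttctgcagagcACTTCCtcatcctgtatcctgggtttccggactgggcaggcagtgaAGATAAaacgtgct
Ppbp (chr5:90768268-90768567, plus strand): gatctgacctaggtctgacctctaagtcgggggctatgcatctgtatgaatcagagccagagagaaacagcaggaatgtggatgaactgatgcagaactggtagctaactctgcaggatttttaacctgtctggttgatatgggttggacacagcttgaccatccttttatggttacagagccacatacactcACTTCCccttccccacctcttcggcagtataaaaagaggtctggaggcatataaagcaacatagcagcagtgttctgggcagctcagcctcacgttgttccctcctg
Gp6 (chr7:4397695-4397994, minus strand): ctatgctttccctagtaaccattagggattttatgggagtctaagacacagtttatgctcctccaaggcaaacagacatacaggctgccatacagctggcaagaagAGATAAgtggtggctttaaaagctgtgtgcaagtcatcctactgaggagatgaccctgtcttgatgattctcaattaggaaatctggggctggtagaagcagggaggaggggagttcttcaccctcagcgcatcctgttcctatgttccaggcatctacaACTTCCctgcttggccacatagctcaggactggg
Itga2b (chr11:102469834-102470133, minus strand): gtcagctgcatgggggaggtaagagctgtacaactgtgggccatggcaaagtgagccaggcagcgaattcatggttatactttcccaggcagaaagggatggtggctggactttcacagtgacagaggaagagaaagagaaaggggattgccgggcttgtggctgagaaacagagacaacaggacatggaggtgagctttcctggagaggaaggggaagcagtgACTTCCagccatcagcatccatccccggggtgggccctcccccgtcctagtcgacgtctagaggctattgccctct

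Counted from the start of the gene, *Pf4* has the ETS letters 10 bases before it and the GATA letters at base 37 after it. *Gp6* has the GATA letters further upstream and the ETS letters at base 17 after it. Of the exact letters searched, *Ppbp* and *Itga2b* have the ETS letters only, 57 and 26 bases before the start. Among platelet receptor and granule genes, 42 of 54 matched a promoter, and 38.1% of those held the ETS motif and 11.9% the GATA motif. In all 27025 genes with a promoter the shares were 24.1% and 11.4%, and in the genes tested 31.4% and 6.08%. A motif match describes letters in the window and is not a binding site.

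Among other granule cargo, *Thbs1* (thrombospondin 1) was already a major transcript at E8.5, with a mean of 709 CPM against 3569 at E10.5 (log2 ratio 2.33). *Mmrn1* (multimerin 1, which binds factor V) went from 55.0 to 886 CPM (3.99) and from 17 of 37 to 73 of 73 cells. *F5* (factor V) had 22.5 CPM at E8.5 and 132.6 at E10.5 (2.51), *F13a1* (factor XIII) 7.95 CPM at E8.5 and 123.7 at E10.5 (3.80) and *Vwf* 35.9 CPM at E8.5 and 259 at E10.5 (2.82). *Srgn* (serglycin, the granule proteoglycan that holds chemokines) had 5.40 CPM at E8.5 and 105.2 at E10.5 (4.05). *Clu* (clusterin) had 143.3 CPM at E8.5 and 1133 at E10.5 (2.97), and *Timp3* 186 CPM at E8.5 and 1285 at E10.5 (2.78).

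Genes of the machinery that makes and releases granules differed unequally. *Rab27a* (2.13) and *Vps33b* (1.94) were higher. *Rab27b* (0.89), *Vamp8* (0.90), *Snap23* (0.01), *Lyst* (0.89) and *Cd63* (-0.22) all stayed under 2-fold. *Plek* was 2-fold higher (1805 to 4716 CPM, 1.39). *Slc35d3*, needed for dense granules, had 31.3 CPM at E8.5 and 228 at E10.5 (2.83). The dense granule monoamine transporter *Slc18a2* was at 171 CPM at E8.5 and 116.3 at E10.5 (-0.55). *Nbeal2*, the gene of grey platelet syndrome, shows how few cells can set a mean. Its log2 ratio was 2.48 over all cells, 1 of which reached 9651 CPM, and -0.15 without the 12 E10.5 cells rich in mitochondrial counts.

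Signalling genes downstream of the receptors were higher too. Of 33 members in the table, 18 were 2-fold or more higher and none lower (median log2 ratio 1.51). *Lcp2* (SLP-76) and *Syk*, which carry the signal of *Gp6*, had 78.7 CPM at E8.5 and 549.6 at E10.5 (2.79) and 84.9 CPM at E8.5 and 432 at E10.5 (2.33). *Rgs18*, a megakaryocyte regulator of G proteins, had 154.2 CPM at E8.5 and 1230.3 at E10.5 (2.99), and *Pik3cg* 6.12 CPM at E8.5 and 87.4 at E10.5 (3.63). The thrombin receptors differed unequally. *F2rl2* (PAR3) had 351 CPM at E8.5 and 1955 at E10.5 (2.48) and *F2rl3* (PAR4) 41.8 CPM at E8.5 and 176 at E10.5 (2.05), while *F2r* (PAR1) was expressed in all cells of both stages at 909 and 1600.1 CPM (0.81). *Fermt3* (kindlin-3) and *Tln1* (talin-1), which activate integrins, were just past 2-fold (1.11 and 1.16). *Rap1b*, the small GTPase upstream of them, was at 1755 CPM at E8.5 and 2799.9 at E10.5 (0.67). *P2ry12*, the ADP receptor of adult platelets, was at 1.74 CPM at E8.5 and 2.71 at E10.5 and was found in 5 of 37 and 14 of 73 cells.

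Enzymes of eicosanoid synthesis split. Of 14, 6 were higher and 2 lower (median 0.94). The chain that frees arachidonic acid and turns it into thromboxane was higher at each step. *Pla2g4a* was at 1.16, *Ptgs1* (cyclooxygenase 1) at 2.59 and *Tbxas1* (thromboxane synthase) at 2.65. *Alox12* (12-lipoxygenase) was higher as well, at 3.23. *Hpgd*, which inactivates prostaglandins, had no count at E8.5 and was found in 56 of 73 cells at E10.5, where the lowest, median and highest cells held 0, 84.7 and 785 CPM. It was also higher at E10.5 in Endo (4.97) and HPC (2.72). The 2 lower genes are not particular to platelets. *Ptges3*, better known as the HSP90 cochaperone p23, had 6186 CPM at E8.5 and 2000.5 at E10.5 (-1.63) and was lower in Endo (-1.70) and HPC (-1.17) too. *Gpx1*, a glutathione peroxidase, had 1367 CPM at E8.5 and 676 at E10.5 (-1.01).

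Genes of the cytoskeleton were higher at E10.5, among them some of the most abundant transcripts of the cell. Of 35 members in the table, 22 were 2-fold or more higher, none lower, with a median of 1.45. *Actb* went from 2973, 6007 and 17444 CPM (lowest, median, highest) to 8902, 18814 and 37214, and 73 of 73 E10.5 cells lay above the E8.5 median (1.45). *Tmsb4x*, which holds actin monomers, had 1546 CPM at E8.5 and 4839 at E10.5 (1.65). *Myh9*, the non-muscle myosin of inherited macrothrombocytopenia, had 132.9 CPM at E8.5 and 924 at E10.5 (2.79), and 61 of 73 E10.5 cells exceeded every E8.5 cell. *Flna* (2.48), *Actn1* (2.19) and *Wdr1* (2.16) behaved alike in direction. Among tubulins, *Tubb1*, the β1-tubulin of the platelet marginal band, was present in all E8.5 cells and had 243 CPM at E8.5 and 711 at E10.5 (1.54), whereas *Tuba8* was found in 11 of 37 and 71 of 73 cells (6.64 CPM at E8.5 and 228 at E10.5, 4.91). *Tuba4a* lay between them (1.96). *Cfl1* (0.58), *Pfn1* (0.56), *Cdc42* (0.47) and *Rhoa* (0.47) stayed under 2-fold.

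The transcription factors of the lineage differed little. Of 37, 3 were 2-fold or more higher (8.11%, against 8.34% of all genes) and 5 lower (13.5%, against 6.61%), and the median log2 ratio was 0.15. *Gata1* held 0.584, 375 and 939 CPM (lowest, median, highest) at E8.5 and 0, 401 and 1483 at E10.5 (0.22). *Fli1*, the ETS factor of megakaryocytes, held 0.340, 520.2 and 1869 and 38.3, 758 and 1684 (0.15). *Runx1* (-0.01), *Gfi1b* (0.08), *Nfe2* (-0.37), *Meis1* (0.89) and *Mef2c* (0.74) also stayed under 2-fold, and the cells of the stages overlapped for each. The higher genes were *Mafk* (1.5), a partner of *Nfe2*, the SRF coactivator *Mkl1* (1.48) and *Lyl1* (1.16). Without the cells rich in mitochondrial counts *Mafk* was at 0.46 and *Lyl1* at 0.57. The lower genes were *Klf1*, *Ikzf1*, *Sp1*, *Ets1* and *Myb*. *Klf1*, the activator of erythroid genes, was found in 29 of 37 cells at E8.5 and 2 of 73 at E10.5 (27.5 CPM at E8.5 and 0.820 at E10.5, -3.97). *Ikzf1* (Ikaros) had 35.3 CPM at E8.5 and 0.586 at E10.5 (-4.52) and went the other way in HPC (1.21). *Sp1*, a widely expressed zinc finger factor, differed by -1.44, and *Ets1* had 201 CPM at E8.5 and 88.1 at E10.5 (-1.18).

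Among cytokine receptors and the kinases and factors behind them, more genes were higher than lower. *Epor*, the erythropoietin receptor, had 91.8 CPM at E8.5 and 25.0 at E10.5 (-1.83). Of 27 genes in this list, 7 were higher (25.9%, against 8.34% of all genes), among them *Jak2* (1.23) and *Stat3* (1.20). Only *Epor*, which also stands in the red cell list, was lower (3.70%, against 6.61%). Of 33 DNA replication genes, none was higher and 4 lower (median -0.57), namely the licensing factors *Cdt1* (-1.76) and *Cdc6* (-1.53) and also *Rfc4* (-1.08) and *Gins1* (-1.07). The same list had a median of -0.89 in Endo and -0.28 in HPC. Of 31 genes of mitosis and cytokinesis, 2 were higher and 3 lower (median -0.07), and *Ccnb1* (0.04), *Cdk1* (0.51), *Mki67* (-0.36) and *Top2a* (-0.25) stayed under 2-fold. G1 regulators moved in both directions (2 higher, 5 lower of 20). *Cdkn2d*, the CDK inhibitor p19, had 70.7 CPM at E8.5 and 303 at E10.5 (2.08), while *Cdkn1a* (p21) had 20.5 CPM at E8.5 and 2.04 at E10.5 (-2.82). The cyclins *Ccne1* (-2.39), *Ccne2* (-1.26) and *Ccnd3* (-1.12) were lower.

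E8.5 megakaryocytes carried erythroid transcripts, in amounts that varied from cell to cell. Summed over 8 globin genes, the level was 45.5 CPM in the lowest cell, 25418 in the median and 146704 in the highest, against 42231, 108079 and 234921 in EryP of the same stage. In E10.5 megakaryocytes it was 0, 24.7 and 5027. The stages overlapped, with 26 of 73 E10.5 cells above the lowest E8.5 cell and 7 of 37 E8.5 cells below the highest E10.5 cell, and 27 of 37 E8.5 megakaryocytes but none at E10.5 had 1% or more of their counts on globins. As a share of counts, globins took a median of 2.69% in E8.5 megakaryocytes and 8.94% in EryP (lowest cell 4.25%). In E8.5 Endo, sequenced on the same flow cell, the highest cell had 0.0108%. In E8.5 HPC the median was 0.0136% and the highest cell 3.70%, with 10 of 89 cells at 1% or more. Without the 16 cells with transcripts of both sexes, the median of the other 21 was 22973 CPM.

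The embryonic globins were not present in one ratio. *Hbb-bh1* (βh1-globin) was at 1000 CPM or more in 34 of 37 cells, *Hba-x* (ζ-globin) in 22 and *Hbb-y* (εy-globin) in 14. For *Hbb-y*, 12 of 37 cells were under 10 CPM and the highest reached 50600.4 CPM, while in EryP 62 of 66 cells were at 1000 CPM or more. At E10.5, 58 of 73 megakaryocytes still held a count of *Hbb-bh1* (lowest, median, highest 0, 7.59 and 4999 CPM), 14 of *Hbb-y* and 2 of *Hba-x*. The log2 ratios were -6.16, -8.38 and -12.11. *Hba-a1* (-6.72) and *Hba-a2* (-7.31) are near-identical copies, as are *Hbb-bs* (-4.46) and *Hbb-bt* (-0.56), and how their reads were divided is uncertain.

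Platelet genes were also counted cell by cell. Out of 54 platelet receptor and granule genes, an E8.5 megakaryocyte expressed 19 at the lowest, 33 in the median and 46 at the most, an E10.5 megakaryocyte 37, 44 and 51, and an EryP 6, 13 and 19. Across the 37 E8.5 cells, Spearman's rho of globin level with the number of platelet genes was -0.35, with *Plek* -0.63 and with total counts -0.31, as descriptions over cells that share 1 sort and 1 lane. In the plot of globin level against platelet genes, the cells with the fewest platelet genes lie beside EryP. Cells with both programmes were common, and of the 3 cells of lowest *Plek*, 1 had transcripts of both sexes.

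**Figure D3:**
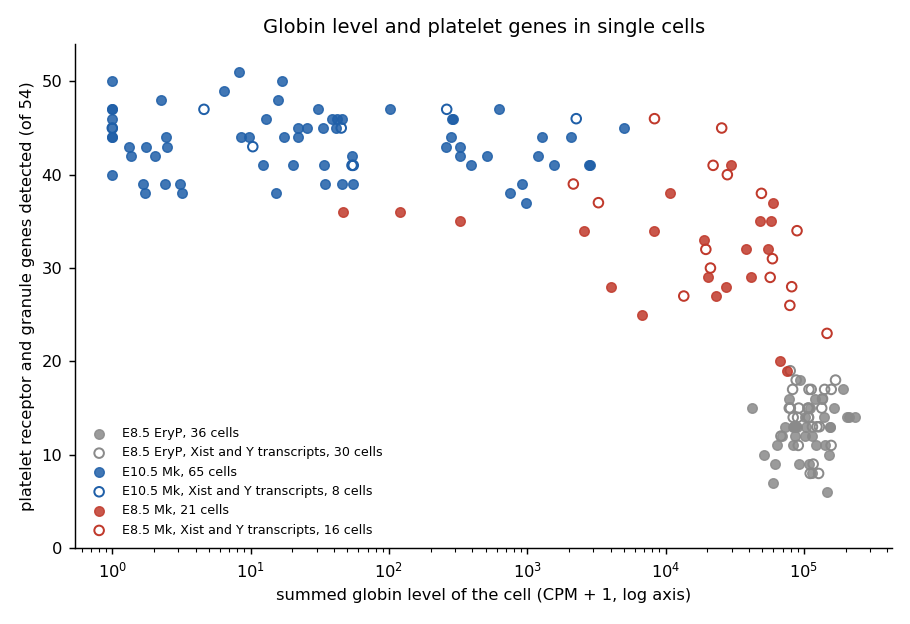
Summed globin CPM + 1 (x axis, log scale) and number of 54 platelet receptor and granule genes detected (y axis) in single cells of E8.5 Mk (red), E10.5 Mk (blue) and E8.5 EryP (grey). Open circles are cells with transcripts of both sexes. E8.5 megakaryocytes span globin levels from 45.5 to 146704 CPM and 19 to 46 platelet genes, between E10.5 megakaryocytes and EryP.

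Haem synthesis and red cell genes were lower at E10.5 in part. Of 21 genes of haem synthesis and iron, 11 were 2-fold or more lower and 1 higher (median -1.05). *Alas2*, the erythroid enzyme of the first step, held 0, 168 and 1530.3 CPM at E8.5 (lowest, median, highest) and was found in 3 of 73 cells at E10.5 (-7.37), while *Alas1*, the form used in all tissues, was the 1 that was higher (8.91 CPM at E8.5 and 36.1 at E10.5, 1.90). *Alad* (-2.14), *Uros* (-2.01) and the mitochondrial iron importer *Slc25a37* (-3.70) were lower, and *Urod* (-0.48) and *Ftl1* (-0.56) did not reach 2-fold. Of 20 genes of the red cell surface and skeleton, 11 were lower and none higher (median -2.07). *Kel*, the protein of the Kell blood group, had 37.4 CPM at E8.5 and 0.00741 at E10.5 (-5.25). *Gypc* (0.65) and *Epb41* (0.21) were not lower. The promoters of *Alas2* and *Hba-x*, the most reduced genes of the haem and globin lists, are given in the same way.
Alas2 (chrX:150547167-150547466, plus strand): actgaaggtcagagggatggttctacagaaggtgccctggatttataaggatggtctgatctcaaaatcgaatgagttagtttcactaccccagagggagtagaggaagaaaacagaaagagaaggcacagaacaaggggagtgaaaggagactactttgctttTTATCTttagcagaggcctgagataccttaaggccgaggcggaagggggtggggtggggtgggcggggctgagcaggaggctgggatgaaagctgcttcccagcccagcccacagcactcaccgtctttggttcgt
Hba-x (chr11:32276350-32276649, plus strand): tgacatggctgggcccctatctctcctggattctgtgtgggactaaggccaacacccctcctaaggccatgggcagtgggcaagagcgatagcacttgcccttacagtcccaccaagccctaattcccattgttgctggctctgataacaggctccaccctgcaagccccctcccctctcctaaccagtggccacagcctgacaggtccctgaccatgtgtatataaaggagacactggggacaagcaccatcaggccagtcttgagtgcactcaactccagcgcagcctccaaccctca

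The *Alas2* window holds the GATA letters 86 bases before the start, and the *Hba-x* window neither of the exact motifs searched. The letters TGATAA, which were not searched, do occur in the *Hba-x* window. Of 51 erythroid list genes in all, 35 matched a promoter, of which 25.7% held the GATA motif and 11.4% the ETS motif.

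The erythroid genes were not carried in the proportions found in EryP. Over the 46 with an EryP mean of 10 CPM or more, the mean in E8.5 megakaryocytes ranged from 3.12% (*Slc4a1*, band 3) to 105.8% (*Ireb2*) of the mean in EryP, with a median of 30.3%. The upper end includes genes that Endo and HPC of the same stage held too, *Ireb2* at 122.1 and 121.1 CPM (85.8 in EryP) and *Gypc* at 168 and 151.4 CPM (334 in EryP). Globins ranged from 12.4% (*Hba-a2*) to 40.3% (*Hbb-bh1*). Late red cell genes were low, with *Ermap* at 5.82% and *Rhag* at 8.35%, while *Epor* was at 83.4% and *Gypc* at 86.0%. Without the cells with transcripts of both sexes the median was 29.1%, and that of the globins 16.3% in place of 25.4%.

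**Figure D4:**
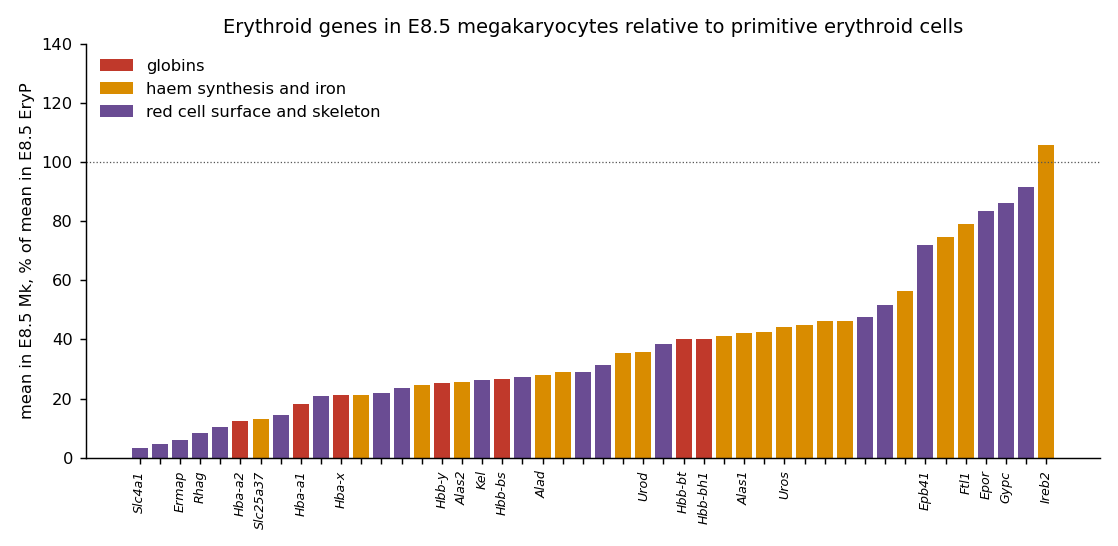
Mean CPM in E8.5 megakaryocytes as a percentage of the mean in E8.5 primitive erythroid cells (y axis) for 46 erythroid genes (x axis, ordered). Bars are genes, coloured by list and named where the text names the gene, and the dotted line marks 100%. Values run from 3.12% for *Slc4a1* to 105.8% for *Ireb2*.

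Genes named for leukocytes formed a further group that was higher at E10.5. Of 31, 16 were 2-fold or more higher and none lower (median 2.02), and *Rac2*, *Coro1a*, *Was*, *Lcp1* and *Lcp2* also stand in the platelet lists. *Nckap1l* (HEM1, of the WAVE complex that drives actin branching) had 0.0743 CPM at E8.5 and 126.6 at E10.5 and went from 1 of 37 to 64 of 73 cells (6.89). *Coro1a* (4.30), *Rac2* (3.45) and *Fcer1g* (3.04), the signalling chain of *Gp6*, were higher. Class I antigen presentation was higher, with *B2m* at 29.7 CPM at E8.5 and 122.1 at E10.5 (2.01), *H2-D1* at 13.9 CPM at E8.5 and 112.4 at E10.5 (2.92) and *H2-K1* at 0.376 CPM at E8.5 and 31.2 at E10.5 (4.55), and reads of the last pair may be divided between them. The higher level of these class I genes was not particular to megakaryocytes. *B2m*, *H2-D1* and *H2-K1* had log2 ratios of 2.81, 3.11 and 3.02 in Endo and 2.35, 2.36 and 4.86 in HPC. The leukocyte list as a whole had a median of 0 in Endo and 2.35 in HPC. In HPC this cannot be told apart from the CD45 gate.

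Some genes named for early embryonic timing or imprinting were lower. Of 25 such genes in the table, 6 were 2-fold or more lower and 1 higher (median -0.19). *Trim71* (21 of 37 and 2 of 73 cells, -3.10), the imprinted RNA *H19* (52.7 CPM at E8.5 and 4.32 at E10.5, -3.34) and *Peg3* (28.3 CPM at E8.5 and 1.05 at E10.5, -3.84) had the largest ratios, followed by *Igf2bp1* (-1.64). *Lin28b*, an RNA-binding protein of early embryos, was at 142.7 CPM at E8.5 and 78.2 at E10.5 (-0.86), and *Hmga1* (-0.28) and *Igf2bp3* (-0.04) were close to level.

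Among the 20 genes of largest ratio in each direction were several outside these lists. Higher were *Susd4*, a complement inhibitor (no count at E8.5, log2 ratio 6.29), and the chemokine *Cxcl5* (no count at E8.5, 20 of 73 cells at E10.5, 5.41). So were *Il12a* (0.332 CPM at E8.5 and 76.7 at E10.5, 5.87) and *Gsap* (3.14 CPM at E8.5 and 140.3 at E10.5, 5.09). *Ncf1*, a subunit of the phagocyte oxidase, was higher too (no count at E8.5, 36 of 73 cells at E10.5). The ratios of *Slc24a3* and *Ddx28* rested on few cells. They were 6.74 and 4.67 over all cells and 3.30 and 1.01 without the cells rich in mitochondrial counts. Lower were *Reln* (reelin, 33 of 37 and 1 of 73 cells, -6.62), *Prtg* (protogenin, 163 CPM at E8.5 and 3.01 at E10.5, -5.35), *Cd24a* (-6.48), the zinc transporter *Slc39a8* (186 CPM at E8.5 and 3.48 at E10.5, -5.39) and *Nrip3* (-6.63). *Prtg* and *Reln* were lower at E10.5 in HPC (-3.64 and -5.35) and Endo (-2.33 and -3.19) too. Several of these lower genes were also expressed in E8.5 EryP, with *Cd24a* at 693 CPM there against 91.2 in E8.5 megakaryocytes, *Slc39a8* at 367 against 186, *Nrip3* at 155.2 against 101.8 and *Reln* at 106.5 against 98.7. *Prtg* was at 21.1 CPM in EryP against 163.

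To set the stage ratio of megakaryocytes beside those of cells from the same pair of flow cells, the list medians were computed in Endo and HPC. The medians of the platelet lists were near level there, with receptors at 0.43 in Endo and -0.27 in HPC, granules at 0.04 and -0.25, and the cytoskeleton at 0.00 and -0.00. Their members went both ways. The counts that follow required a mean of 10 CPM in the higher stage but no share of cells, unlike those in megakaryocytes. By this looser rule, 11.9% of all genes tested were higher and 15.3% lower in Endo, and 4.48% and 9.63% in HPC. In Endo, 9 of 21 receptors were higher and 2 lower, and 6 of 33 granule genes higher and 7 lower. In HPC, 3 receptors were higher and 6 lower, 5 granule genes higher and 8 lower, and 11 of 33 signalling genes lower and 7 higher. Globins were at 0.87 in Endo and -3.98 in HPC, so a lower globin level at E10.5 was shared with HPC. The leukocyte list was at 0.00 in Endo and 2.35 in HPC. Of the 1178 genes higher in megakaryocytes, 26.4% were past 2-fold higher in Endo (11.9% of all genes tested), 15.8% in HPC (4.48%) and 5.77% in both (1.59%). Of the 931 lower, 30.1% were past 2-fold lower in Endo (15.3% of all genes tested), 31.8% in HPC (9.63%) and 12.1% in both (2.54%). With 1 sample a group the differences between populations were not tested.

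**Figure D5:**
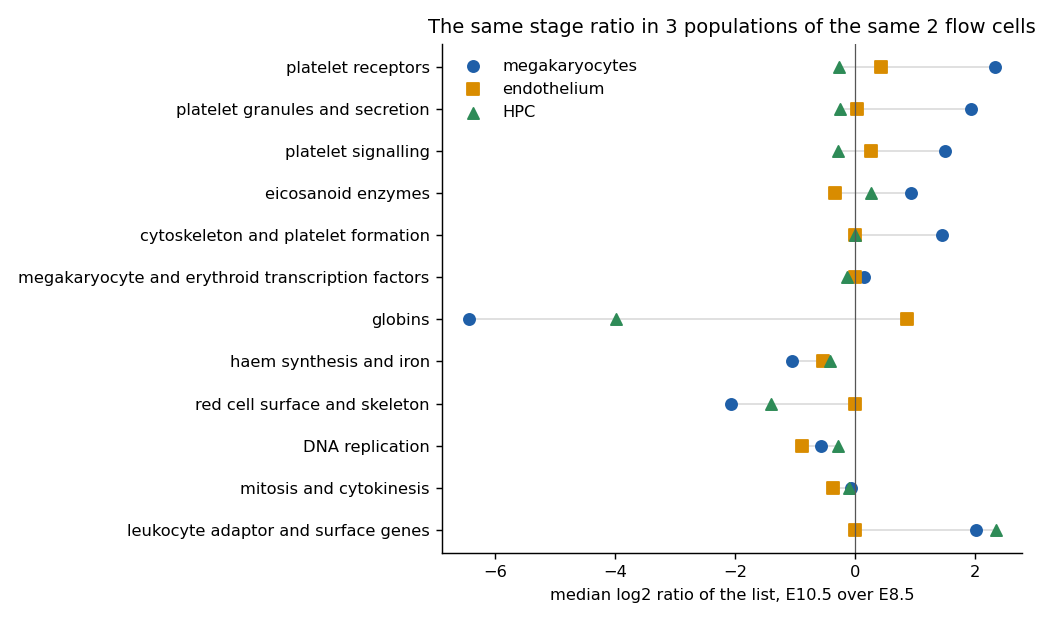
Median log2 ratio of each list (x axis, E10.5 over E8.5) in megakaryocytes (circles), endothelium (squares) and HPC (triangles), all from the same 2 flow cells. Platelet lists are right of 0 in megakaryocytes (2.34 for receptors) and near 0 in the others, while leukocyte genes are high in megakaryocytes (2.02) and HPC (2.35).

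These 5 list medians kept their direction when either kind of flagged cell was left out. Capture sites that held several cells of the same sex are not flagged, so mixed cells may remain. Without cells with transcripts of both sexes, receptors were at 2.23, granules at 1.62, the cytoskeleton at 1.37, globins at -5.95 and red cell genes at -2.05. Without the 12 cells rich in mitochondrial counts they were 2.35, 1.85, 1.43, -6.33 and -2.20. Of the genes past 2-fold, 1011 of 1178 higher and 791 of 931 lower remained so without the cells with transcripts of both sexes. Other named genes moved by more than a factor of 1.5. Without the cells rich in mitochondrial counts, *Gp5* was at 1.38, *Itga2b* at 1.21, *Vwf* at 2.16, *Syk* at 1.70, *Myh9* at 2.17, *Susd4* at 5.36, *BC016579* at 4.33, *Tmprss7* at 3.53 and *H19* at -4.62. Without the cells with transcripts of both sexes, *BC016579* was at 3.87, *Cd84* at 5.33, *Gsap* at 7.00, *Pik3cg* at 4.30, *Alas1* at 2.92, *Esam* at 2.73, *H2-K1* at 3.89, *Hbb-y* at -7.19, *Hba-a1* at -5.90, *Hba-a2* at -6.71, *Trim71* at -2.09 and *Peg3* at -4.78. Each of these kept its direction. *P2ry12* (0.44 over all cells) was past 2-fold without the cells of both sexes, at 1.18, and *Jam3* (-0.15) was at 0.90. Without both kinds of cell *Jak2* was at 0.50, below 2-fold.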

How the data were processed

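Full-length single-cell RNA-seq of sorted yolk sac megakaryocytes was analysed. The authors captured cells on the Fluidigm C1, made Nextera XT libraries, used Rsubread for alignment to GRCm38 (Ensembl release 84), and made the deposited gene counts with featureCounts. Strand use is not given in the sources used here, so overlapping and antisense genes cannot be told apart. After filtering with scater, the authors computed the deposited signal values, CPM scaled by scran size factors, whose sum differs between cells. Nothing was realigned.

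The members and gene lists were chosen with earlier results of these data known. Levels are mean CPM over cells, and ratios compare mean CPM + 1 of E10.5 with that of E8.5 on the log2 scale. A gene was named if it was in a list, among the 20 largest ratios per direction, or set the gate, and within lists mainly by size of ratio or level. *Nbeal2*, *Mafk*, *Lyl1*, *Slc24a3* and *Ddx28* were singled out after their values were seen, because they moved without the cells rich in mitochondrial counts. Some members are counted in their lists but not reported here by name. Shares carry exact Clopper-Pearson intervals and summed counts exact Poisson intervals. Where a stage had no count, a floor of 3 counts over the stage gave the fold. Total counts per cell are given in the report. Promoters are from RefSeq GRCm38.p6.

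Alternatives changed the pseudocount, the filter, the fold, the normalization, the depth, the detection limit, the summary over cells and the cells kept. Leaving out cells with 10% or more mitochondrial counts, alone or with the cells of both sexes, and leaving the cells of both sexes out of the erythroid result, were added after seeing the data. On simulated counts for 15967 genes, 198 of 200 genes with a set 4-fold change between E8.5 and E10.5 megakaryocytes came out no further than 0.5 from it on the log2 scale. The simulated cells shared a pooled profile and were scaled to their totals. They therefore lacked the cells rich in mitochondrial counts and the uneven CPM sums of the real data, and errors from these were not covered. Cells are not replicates, so no test was made. Doublets were not called, and cells with transcripts of both sexes were counted in place of this. The scripts ran in Python 3.11.15 with pandas 2.3.3, numpy 2.4.6, matplotlib 3.10.9 and scipy 1.17.1.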

Additional observations from a re-analysis of the deposited data

Results flagged for a closer look

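In 7 named genes the stage ratio of megakaryocytes was past 2-fold in one direction and past 2-fold in the other direction in both Endo and HPC, out of 16 such genes in the table. The difference between populations was not tested. *Cd24a* had a log2 ratio of -6.48 in megakaryocytes, 2.09 in Endo and 1.34 in HPC, and was at 693 CPM in E8.5 EryP against 91.2 in E8.5 megakaryocytes. *Fmo1*, a flavin monooxygenase, had -5.26 against 1.06 and 1.63. The neuronal-type glucose transporter *Slc2a3* had 1.66 against -3.36 and -1.78. Among granule genes, *Serpine2* had 1.70 against -2.27 and -2.80, *F5* 2.51 against -2.64 and -1.70, and *Clu* 2.97 against -1.61 and -1.71. *Itga2b*, which the megakaryocyte gate uses, had 1.87 against -1.73 and -1.78. Its protein, CD41, also sets the gates of Endo and HPC, and the HPC gate differs between the stages.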

How the results depend on the processing

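Under the alternatives 13 values of list medians moved by more than a factor of 1.5 and the others by less. The median of mitosis genes, near 0 (-0.07), was positive with summed counts (0.02), without the cells of both sexes (0.04), without globin-rich cells (0.15) and after subtracting Endo and HPC (0.26), and no other list median changed sign. The count of genes higher at E10.5 (1178) was 2400 without a filter, 356 with a filter of 100 CPM and 50% of cells, and 370 at 4-fold. The count of genes lower (931) was 1893, 322 and 190 in the same order, 608 with a pseudocount of 10 CPM and 1830 with log2(CPM + 1) averaged over cells. Without the cells in which globins took 1% or more of the counts, which left 10 E8.5 cells, platelet receptors were at 1.69 and signalling genes at 0.83. Averaging log2(CPM + 1) gave -5.83 for globins, -1.78 for haem and iron, -1.30 for DNA replication and 1.26 for leukocyte genes. A pseudocount of 10 gave -4.84 for globins, -1.31 for red cell genes and 1.28 for leukocyte genes. After subtracting the mean ratio of Endo and HPC, globins were at -4.42, red cell genes at -1.38, leukocyte genes at 0.61, and 64.5% of calls were upwards. Without the cells rich in mitochondrial counts 48.9% were, and without these and the cells of both sexes globins were at -5.84. Without the globin-rich cells 86 named genes moved by more than this factor and 78 did not, with log2 averaged over cells 86 did and 80 did not, and with a pseudocount of 10, 52 did. *Hbb-bs* (0.67) and *Hbb-y* (0.54) changed sign without the globin-rich cells. Both belong to the globin sum by which those cells were chosen, so this change is built into the setting. *Nbeal2* changed sign without the cells rich in mitochondrial counts (-0.15), and also without these and the cells of both sexes (-0.49). The cause for *Nbeal2* was not tested. Thinning to 500000 counts moved no list median by this factor, and shares of cells with a gene are limited by depth, 14 of which moved when thinned and 72 did not. No paired analysis was possible because each stage is 1 sample and no test was made.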

Other observations

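Genes with the largest ratios were in places neighbours on a chromosome. Of the 20 genes with the largest ratios upwards, *Cxcl5*, *Ppbp* and *Pf4* lie within 14.0 kb on chromosome 5 (GRCm38), and the next gene, *Cxcl3*, was at 0 CPM at E8.5 and 5.15 at E10.5. *Gcsam*, *BC016579* and *Tmprss7* lie within 83.3 kb on chromosome 16. *Gcsam* was found in no E8.5 cell and 26 of 73 E10.5 cells, *BC016579* in 1 of 37 and 36 of 73, and *Tmprss7* in 5 of 37 and 41 of 73. *BC016579* and *Tmprss7* are annotated on the same strand with a short gap, and reads that run from one into the next could not be told apart here. Of the 20 genes with the largest ratios downwards, 5 belong to the 2 globin clusters.

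Some groups of genes stayed level. None of 32 cytosolic ribosomal protein genes was past 2-fold (median log2 ratio -0.24), and of 21 genes of glycolysis 1 was higher, *Slc2a3* (median 0.20). Of 21 progenitor genes in the table *Angpt1* was higher (23.0 CPM at E8.5 and 115.2 at E10.5, 2.28) and *Myb* lower (-1.21). Of 11 endothelial markers only *Esam* was past 2-fold (3.34), and *Kdr* was at 68.6 CPM at E8.5 and 117.2 at E10.5. Only 6 of the 21 progenitor genes and 4 of the 11 endothelial markers passed the filter on low values. Most members of these 2 lists were therefore too low to be called level. Of 16 mesenchyme and mesoderm markers 1 was lower, *Col1a2* (10.4 CPM at E8.5 and 0.978 at E10.5, -2.52), which was also lower in Endo (-2.54) and HPC (-2.93). None of the 9 granulocyte and progenitor, 10 macrophage and 2 visceral endoderm markers in the table was past 2-fold. No marker of these lists or of the mesenchyme list passed the filter on low values, so they were too low to be called level. The granulocyte and progenitor list had a median of 0.67.

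Some immediate early and heat shock genes were higher. Of 18, 4 were higher (22.2%, against 8.34% of all genes) and 1 lower, with a median of 0.71. The 13 members that passed the filter on low values had a median of 0.33. Over all members the median was 0.65 in Endo and 0.69 in HPC. *Jun* was higher (1.85) and was past 2-fold in Endo (1.26) and HPC (1.31) too. *Egr1* was at 0.80, under 2-fold, and at 1.61 in Endo and 1.72 in HPC.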
